A study of Schizosaccharomyces pombe with 2 samples.

Results

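The genes described here serve the supply of biotin, vitamin B6 and thiamine in the fission yeast Schizosaccharomyces pombe: vht1, snz1, bsu1, thi2, thi4, thi9, pho4 and nmt1, the last also known as thi3. They were chosen by name, as array rows that carry the symbol or the systematic ID of a gene, and with earlier results of the same arrays in view, so their own ratios are given as a description. They entered the fit over all genes, but their calls are given as a count alone and support nothing. Of the 8 genes, 7 were found on the array by a name that belongs to them alone and measured on both arrays, among 4791 genes in all. The eighth, bsu1, has no row of its own name.

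RNA of a strain labelled pob3 was compared with RNA of a strain labelled wt on 2 spotted arrays of open reading frames, as part of a series on FACT and centromeric heterochromatin. FACT, of which Pob3 is a subunit, is a histone chaperone that helps RNA polymerase pass nucleosomes and restores them behind it. Each array held both RNAs in different dyes, with pob3 in Cy5 and wt in Cy3 on replicate 1, and the reverse on replicate 2. The labels give neither the pob3 allele nor the medium or growth temperature, and they leave unsaid whether separate cultures were used for each array, so the spread between the arrays may be technical.

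Biotin, vitamin B6 and thiamine are cofactors of central metabolism: biotin of carboxylases, pyridoxal phosphate (the active form of vitamin B6) of transaminases and other enzymes of amino acid metabolism, and thiamine diphosphate of decarboxylases, dehydrogenases and transketolase. Fission yeast cannot make biotin from scratch and depends on uptake, whereas it can make vitamin B6 and thiamine or take them up. Thiamine in the medium represses the genes that make and import it, which is why the nmt1 promoter (no message in thiamine) is widely used as a switch for gene expression in this yeast.

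Values are log2 ratios of pob3 over wt after background correction and intensity-dependent normalisation, so that a negative value is a lower level in pob3. Each gene was spotted in duplicate on each array, and spots of an array were averaged to 1 value, and the means carry the SD of both arrays (n = 2). Of the gene spots, 96.9% to 98.6% were above background in Cy3 and 98.7% to 99.0% in Cy5, against 0.192% to 0.390% and 3.31% to 5.58% of blank spots. The Cy5 channel of replicate 1 was brighter over the whole array, with a median gene signal of 6323 against 2021 in Cy3 for the first spots, so raw signals compare the strains only after normalisation. Across all 4791 genes, which are not independent replicates, the log2 ratios of the arrays had a Pearson r of 0.150 and a Spearman rho of 0.104. The pob3 transcript itself had log2 ratios of -1.40 and -1.11, a mean of -1.26 ± 0.20 that did not pass the test (limma, Benjamini-Hochberg adjusted p = 0.0600). Under 13 other settings its adjusted p ran from 0.0012 to 0.498 and lay under 0.05 in 7, so the call depended on the processing. Where the probe lies relative to the change in the gene is not known, so this value is no check of the strain.

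A displaced reading grid bears on nmt1 and thi4 and is described first. The printed spots lie in 32 blocks, and in the block at meta row 7 and meta column 4, which holds both genes, the brightness of the same names correlated between the arrays with an r of only 0.276, against 0.906 to 0.985 in the other blocks. When the names on replicate 2 were moved by 1 row, the r in this block rose to 0.978. The first row of the block was read at a vertical position of 2817 on replicate 2, whereas that of the block beside it lay at 2795, and rows were 22.0 apart. Spots named empty or buffer, which should be dim, had a mean log2 Cy3 signal of 7.23 and 7.74 as named and of 3.17 and 3.48 after the move, in the first and second spots. The grid of this block therefore sat 1 row too low on replicate 2, and each spot there carried the name of the row above it.

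The block at meta row 6 and meta column 4 also seemed displaced on both arrays, with blank spots at 6.46 to 7.40 as named and at 3.80 to 5.02 after the move. Its first row was read at 2370.6 on replicate 1 and 2371.5 on replicate 2 (first spots). That of the block beside it lay at 2345.5 on both, so the offset was somewhat more than 1 row. As both arrays were displaced alike, the r between them cannot check this block, and its move rests on the blank spots. In blocks read in place, blank spots lay between 2.79 and 4.38. Names in both blocks were moved by 1 row before all values given here, which concerned 313 gene names. The moves were decided by the Cy3 brightness of blank spots and not by the ratio of the strains. Positions and the r between the arrays were looked at beside it.

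**Figure D1:**
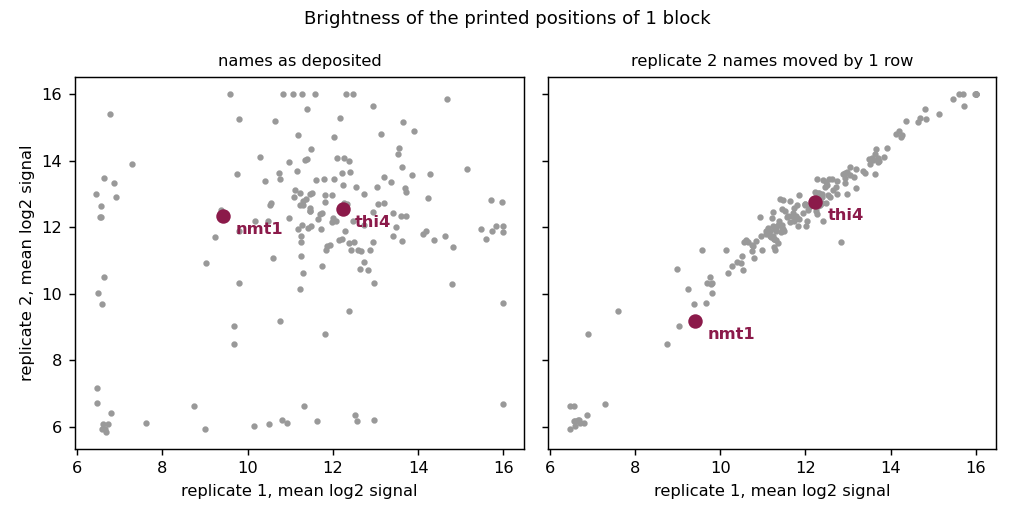
Brightness of the printed positions of 1 block (meta row 7, meta column 4; first spots) on replicate 1 (horizontal axis) and replicate 2 (vertical axis), as the mean log2 signal of both channels, with the names as deposited on the left and with the names of replicate 2 moved by 1 row on the right. The points scatter on the left (r = 0.276) and fall on a line on the right (r = 0.978), where nmt1 moves from bright to dim on replicate 2.

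Among the 7 genes, the biotin importer gene vht1 and the vitamin B6 synthesis gene snz1 were over 2-fold lower in pob3 on both arrays. In the thiamine group, thi2 and pho4 were also below 0 on every spot, by less than 2-fold in the mean, and thi9, thi4 and nmt1 differed in sign between the arrays. By the limma test over all genes, 1 of the 7 (vht1) was past an adjusted p of 0.05, against 0.626% of all genes in either direction and 0.104% of all genes in the lower direction. With median centring this call was lost, although the log2 ratio of vht1 there was -1.99. Over 2-fold lower on both arrays were 2 of the 7 (vht1 and snz1), against 0.230% of all genes, and below 0 on both arrays were 4 of the 7, against 25.7%. Since the genes were chosen with these ratios known, nothing is read from these counts. The median log2 ratio of the 7 genes was -0.32, beside 0.019 over all 4791 genes, and -0.10 with print-tip loess.

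**Figure D2:**
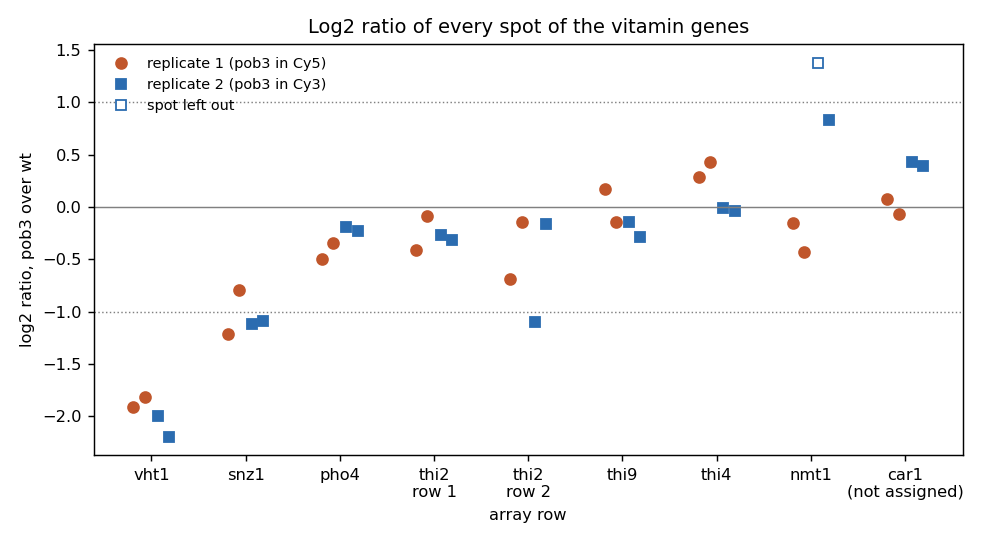
Log2 ratio of pob3 over wt (vertical axis) for every spot of the measured genes (horizontal axis), with replicate 1 as circles and replicate 2 as squares, open where the spot was left out; dotted lines mark a 2-fold difference. All 4 spots of vht1 lie below -1.81, those of snz1 between -1.22 and -0.79, and those of nmt1 below 0 on replicate 1 and above 0 on replicate 2.

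The gene vht1 (SPAC1B3.16c) encodes the plasma membrane transporter that brings biotin, also called vitamin H, into the cell. On replicate 1 its duplicate spots gave 9774 and 9301 in the pob3 channel and 12932 and 11489 in the wt channel, with log2 ratios of -1.91 and -1.81 after normalisation. On replicate 2 they gave 12100.5 and 9175 in the pob3 channel and 55269 and 47632 in the wt channel, with log2 ratios of -1.998 and -2.19. The pob3 signal was thus the lower of the pair in every spot, in either dye, even in the Cy5 channel of replicate 1 that was brighter over the array as a whole.

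The mean for vht1 was -1.98 ± 0.17, a level 3.94-fold lower in pob3, with -1.86 on replicate 1 and -2.10 on replicate 2. This was the lowest mean of the 4791 genes, and the third lowest value on replicate 1 and the lowest on replicate 2. No spot of the gene was saturated, and its duplicates differed by 0.093 and 0.19, beside a median over genes of 0.17 and 0.15 on the same arrays. In RNA from whole cultures, less transcript in each cell and fewer cells with the transcript cannot be told apart.

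The gene snz1 (SPAC29B12.04) belongs to the family of pyridoxal phosphate synthase subunits that build vitamin B6. Its spots had log2 ratios of -1.22 and -0.79 on replicate 1 and of -1.12 and -1.09 on replicate 2. Before normalisation, the pob3 signal on replicate 1 was the higher of the pair, at 17548 and 26023 against 15088 and 18495 in wt. On replicate 2 it was the lower, at 17072 and 17876 against 42226 and 42108. The negative values on replicate 1 thus rest on the normalisation. The duplicates of replicate 1 lay 0.43 apart, a wider gap than the median of 0.17 for that array, and those of replicate 2 lay 0.034 apart. The array means were -1.003 and -1.10, and the mean of -1.05 ± 0.072 is a level 2.08-fold lower in pob3, the rank of 15 among 4791 genes counted from the lowest.

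Its value on replicate 1 lies almost on the 2-fold limit, and the count of genes over 2-fold lower on both arrays fell from 2 to 1 in 5 of the 12 settings that gave this count. With print-tip loess, which normalises each block by itself, the mean of snz1 was -0.79, with -0.71 and -0.88 on the arrays. The sign did not depend on the setting: snz1 was below 0 on both arrays in all 13 settings tried, and so was vht1.

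The row that could stand for bsu1, which encodes a plasma membrane importer of vitamin B6, could not be assigned. The array has a row named car1, a name that the reference table gives to bsu1 as a synonym and to another gene as its symbol. That row had log2 ratios of 0.0064 on replicate 1 and 0.41 on replicate 2, a mean of 0.21 ± 0.28, and is not counted among the 7 genes.

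The thiamine group held genes of synthesis (nmt1, thi2 and thi4), uptake (thi9) and phosphatase activity (pho4). The gene nmt1 encodes the enzyme that makes the pyrimidine part of thiamine, and its array row carries the name thi3. It was dim on both arrays: on replicate 1 the signals were 1679 and 1485 for pob3 and 279 and 324 for wt, before a Cy5 background of 681 and 573 is taken off. On replicate 2 the kept spot gave 589 for pob3 and 932 for wt, the latter over a background of 504. The other spot of replicate 2 carried a quality mark, was not above background in either channel and was left out.

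The log2 ratios of nmt1 were -0.15 and -0.43 on replicate 1 and 0.83 in the kept spot of replicate 2, so the arrays went in opposite directions. With median centring they were 0.32 and 0.17, so that this opposition depended on the normalisation. The mean was 0.27 ± 0.79, with an SD larger than the mean, and no difference between the strains was resolved at this signal. With the names as deposited, the spot called thi3 on replicate 2 was that of the next row, and nmt1 seemed to have log2 ratios of -0.29 and -0.34, lower on both arrays. The brightness tells these readings apart: the mean log2 signal of nmt1 was 9.36 on replicate 1, and on replicate 2 it was 12.45 with the names as deposited and 9.44 with the names moved.

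The gene thi4 encodes the enzyme that joins the thiazole and pyrimidine parts to thiamine phosphate. Its spots had log2 ratios of 0.28 and 0.43 on replicate 1 and of -0.012 and -0.035 on replicate 2, a mean of 0.17 ± 0.27. With the names as deposited, replicate 2 had given 0.51 and the mean 0.43, higher in pob3 on both arrays. After the move, thi4 was higher on replicate 1 alone and close to 0 on replicate 2.

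The gene thi2, also called nmt2, encodes the enzyme that makes the thiazole part of thiamine, and its name stands on 2 rows of the array. The first row had array means of -0.25 and -0.29, and all of its spots were above background in both channels. The second row had -0.41 and -0.63, with a gap of 0.93 between its duplicates on replicate 2, and wt was not above background in 1 of its spots. All 8 spots lay below 0, and the mean over both rows was -0.40 ± 0.091. The files do not say whether the rows carry the same probe, and with median centring the value on replicate 1 was 0.016, so that the sign on that array depended on the normalisation.

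The thiamine importer gene thi9 (SPAC9.10) had log2 ratios of 0.18 and -0.15 on replicate 1 and of -0.14 and -0.29 on replicate 2. The mean was -0.10 ± 0.16, and the arrays differed in sign at 0.014 and -0.22. The gene pho4, which encodes an acid phosphatase that is repressed by thiamine, had array means of -0.42 and -0.21 and a mean of -0.32 ± 0.15. All 4 of its spots were below 0, but with print-tip loess its value on replicate 2 was 0.12 and its mean -0.10. On replicate 1 the pob3 signal of pho4 was the higher before normalisation, at 8611 and 9414 against 4125.5 and 4092 in wt. The same was so for every spot of thi2 on replicate 1. As for snz1, the negative values of both genes on that array rest on the normalisation.

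Over the thiamine group, 3 of 5 genes had a mean below 0 and 2 of 5 (thi2 and pho4) were below 0 on both arrays, with means from -0.40 to 0.27. None of the 5 was over 2-fold in either direction on both arrays. In the mean, their levels in pob3 lay within 1.32-fold of those in wt. For nmt1 that mean averages opposed values of -0.29 and 0.83, so it does not show a level close to that in wt.

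**Figure D3:**
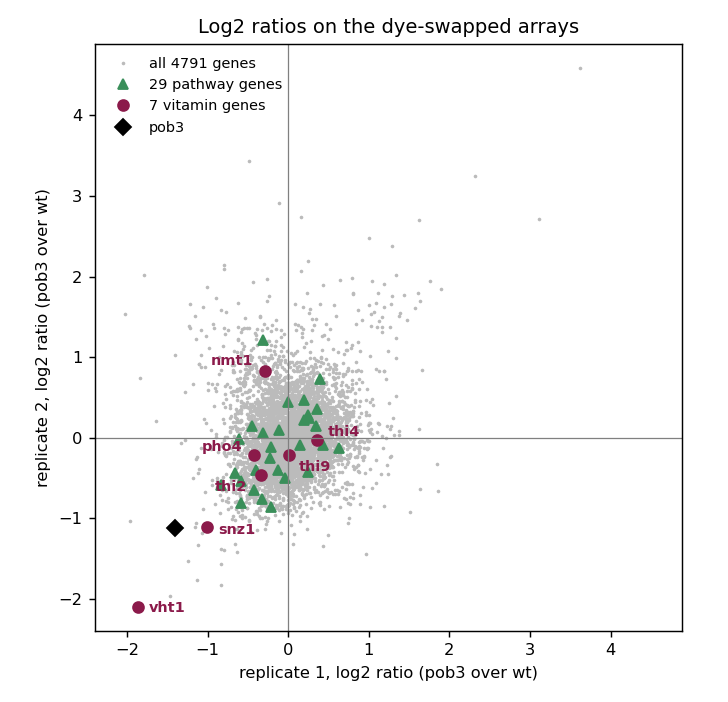
Log2 ratio of pob3 over wt on replicate 1 (horizontal axis) and replicate 2 (vertical axis) for all 4791 genes in grey, the other vitamin pathway genes as triangles, the 7 vitamin genes as labelled circles and pob3 as a diamond. vht1 at -1.86 and -2.10 lies at the lower left edge of all genes, snz1 lies at -1.003 and -1.10, and the 5 thiamine genes lie inside the cloud.

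Other genes of the same pathways were listed by role: thiamine supply, thiamine diphosphate enzymes, biotin-dependent steps, vitamin B6 supply, the vitamins pantothenate and riboflavin, and the acid phosphatase gene pho1. Of the 30 listed genes, 29 were measured, and 0 passed an adjusted p of 0.05 in either direction (limma, adjusted p-values from 0.520 to 0.997). An unadjusted p under 0.05 (limma) was found for 4 of the 29, against 7.28% of all genes. These were liz1, kgd1 and pdc102, lower in pob3, and pyr1, higher in pob3. The vitamin B6 gene pdx3 could not be measured, as no spot of it was kept on either array. The median log2 ratio of the 29 genes was -0.12, beside 0.019 over all genes, and 17 of them (58.6%) were below 0, against 47.8% of all genes. With print-tip loess the median was 0.026 and 12 of 29 were below 0, so the side of 0 on which these genes lay depended on the normalisation.

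Of the 5 genes of thiamine supply, tnr3, which encodes the kinase that makes thiamine diphosphate, was at -0.54 ± 0.31, with -0.32 and -0.76 on the arrays. The gene thi1, for a transcription factor needed to express thiamine genes, was at 0.26 ± 0.026. SPCC18B5.05c was at 0.24 ± 0.14, and thi201 at 0.030 ± 0.17 with opposite signs on the arrays. The list had a median of 0.22, and 1 of its 5 genes was below 0.

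Of the 8 thiamine diphosphate enzymes, pdc101 was saturated in both channels of all its spots, so that its ratio carries no measured direction (without it, 16 of 28 pathway genes were below 0). Of the 7 others, 6 had a mean below 0, with a median of -0.31. The median was -0.55 with median centring (6 of 7 below 0) and -0.42 with print-tip loess (5 of 7 below 0). The wt channel of tkt1, the transketolase gene, was saturated in 2 of 2 spots on replicate 2, and that of pda1 in 1 of 2. Both genes stayed among the 7. The lowest were kgd1, for a subunit of 2-oxoglutarate dehydrogenase, at -0.70 ± 0.16 (unadjusted p = 0.0184, adjusted p = 0.531, limma), and pdc102, of the pyruvate decarboxylase family, at -0.56 ± 0.033. The highest were pdc202, of the same family, at 0.25 ± 0.0064, and pda1, for a subunit of pyruvate dehydrogenase, at -0.090 ± 0.47, which was at 0.097 with print-tip loess. None of these differences passed the test.

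The biotin list held the enzyme that attaches biotin and enzymes that carry it. The biotin ligase gene bpl1 was at -0.55 ± 0.16, with -0.66 and -0.44 on the arrays. The pyruvate carboxylase gene pyr1 was at 0.56 ± 0.24, with 0.40 and 0.73. The acetyl-CoA carboxylase gene cut6 was at 0.17 ± 0.37, with opposite signs on the arrays, and at -0.19 with median centring. None of the 3 passed the test (adjusted p = 0.685 to 0.929, limma), and bpl1 and pyr1 lay on opposite sides of 0 on both arrays.

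The vitamin B6 gene sno1, whose product is the glutaminase partner of Snz proteins in budding yeast, was at -0.0066 ± 0.15, with -0.11 and 0.098 on the arrays, and at 0.056 with print-tip loess. The pyridoxal reductase gene plr1, whose row lies in the block at meta row 6 and meta column 4, was at 0.25 ± 0.54, with 0.63 and -0.13. Neither passed the test (adjusted p = 0.997 and 0.896, limma). The log2 ratio of snz1 was lower than that of sno1 on both arrays (-1.003 against -0.11, and -1.10 against 0.098), and this difference was not tested.

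Among the 10 genes of pantothenate and riboflavin, the pantothenate importer gene liz1 had the lowest mean, -0.71 ± 0.17 (unadjusted p = 0.0174, adjusted p = 0.520, limma), and the pantothenate synthesis gene pan6 was at -0.54 ± 0.45. The riboflavin synthesis gene rib1 was at 0.45 ± 1.08, with -0.31 on replicate 1 and 1.21 on replicate 2, the only listed gene over 2-fold on an array. The riboflavin kinase gene fmn1 was at 0.36 ± 0.00063, and pho1, for the acid phosphatase repressed by phosphate, was at 0.33 ± 0.19. Of the 10 genes 7 lay below 0 (5 with print-tip loess), with a median of -0.20.

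**Figure D4:**
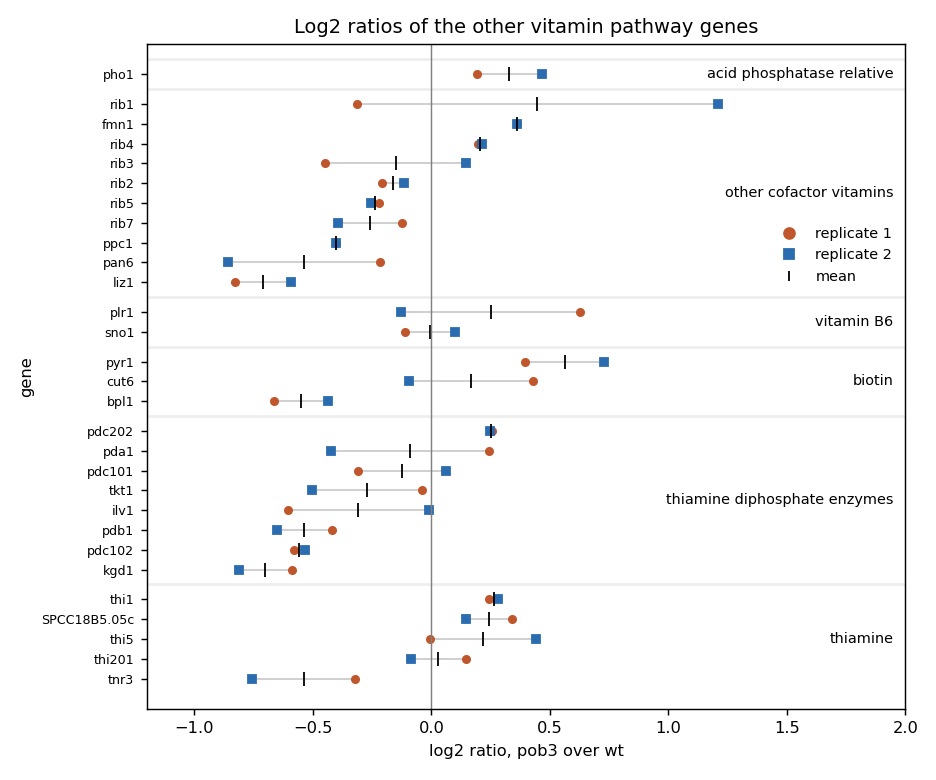
Log2 ratio of pob3 over wt (horizontal axis) of the 29 measured pathway genes (vertical axis, grouped by list), with replicate 1 as circles, replicate 2 as squares and the mean as a bar. The means lie between -0.71 and 0.56, 0 of 29 passed the test, rib1 spans -0.31 to 1.21, and the points of pdc101 come from saturated spots.

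The genes nearest to vht1 in the plane of the arrays were SPCC965.14c (-1.47 and -1.96), SPAC694.03 (-1.13 and -1.76) and the diphthamide synthesis gene dph4 (-1.25 and -1.53), where nearness is the Euclidean distance of the log2 ratios on both arrays. The closest of them lay 0.416 away, and 0 genes lay within 0.25 of vht1. Around snz1, 5 genes lay within 0.25, the nearest being dut1 (-1.07 and -1.19), sdh7 (-1.14 and -1.06) and tif1102 (-1.16 and -1.11). Around nmt1 there were 133, the nearest being cyt2, png3 and msh6, all with a negative value on replicate 1 and a positive one on replicate 2. These counts follow where a gene lies among all genes, vht1 at the edge and nmt1 nearer the centre.

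Each measured gene has a protein-coding neighbour on either side in the reference annotation, 14 in all, of which 13 were measured. Their mean log2 ratios ran from -0.57 to 0.26 with a median of -0.050, and 0 passed the test at an adjusted p of 0.05 (limma, adjusted p-values from 0.676 to 0.998, with 1 gene at an unadjusted p under 0.05). The measured neighbour of vht1, SPAC1B3.15c, was at -0.47 ± 0.042, and clr2 on its other side was not measured, its row being marked as missing. The neighbours of snz1 were spd1 at 0.0056 ± 0.59 and mtq1 at -0.57 ± 0.065. Those of nmt1 were hel2 at -0.19 ± 0.031 and gut2 at 0.025 ± 0.39. The neighbours of the other genes were tda1, sec9, cnl2, cdb4, met26, SPAC9.11, eca39 and apq12, between -0.43 and 0.26.

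Across 13 other settings of background correction, normalisation, spot choice and naming, the mean of vht1 ran from -2.003 to -1.70 and that of snz1 from -1.17 to -0.79. The mean of thi2 ran from -0.62 to -0.18 and that of pho4 from -0.35 to -0.10, in the 12 settings that gave a value. The mean of thi9 ran from -0.22 to 0.017, that of thi4 from 0.025 to 0.43 and that of nmt1 from -0.32 to 0.41. The direction of vht1, snz1, thi2, pho4 and thi4 in the mean was the same in each of their settings, whereas thi9 changed sign in 1 and nmt1 in 2. For thi4 and nmt1 the settings with the names as deposited gave an end of the range.

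**Figure D5:**
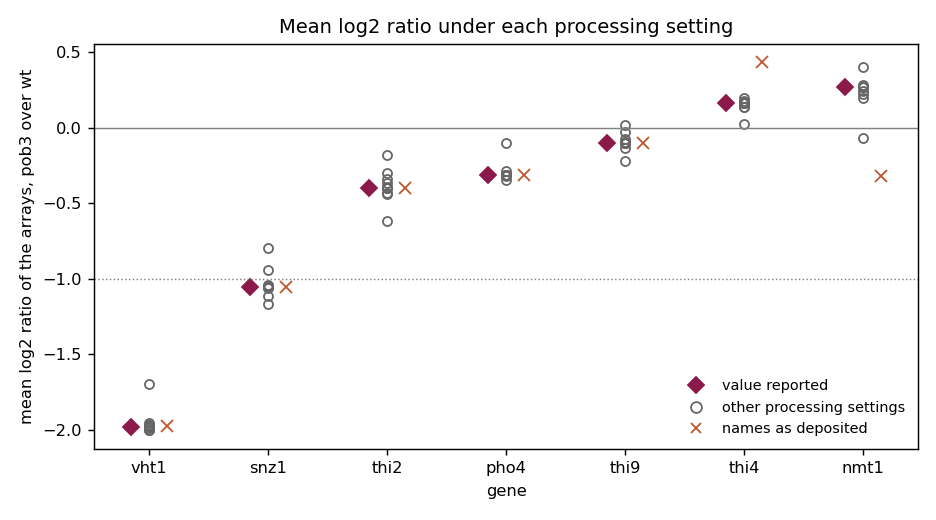
Mean log2 ratio of the arrays, pob3 over wt (vertical axis), for each of the 7 genes (horizontal axis) as reported (diamonds), under other processing settings (open circles) and with the names as deposited (crosses). vht1 lies between -2.003 and -1.70 and snz1 between -1.17 and -0.79, and the crosses leave the other points for thi4 (0.43) and nmt1 (-0.32).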

How the data were processed

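The deposited files hold, per the file headers, scanner intensity values: the median brightness of spots and surrounding background in channels named mutant and wt, in 4 files of 5760 spots. Dyes come from the labels, and the software that quantified the scans is not given in the sources used. A deposited table holds the authors' log2 values, with Lowess normalisation in GeneSpring per the series' design text. Set against the log2 ratios computed here, its replicate 2 column had an r of 0.976, as pob3 over wt. Its replicate 1 column holds control spots alone, cannot be checked for scale, centring or direction, and stayed out. Medians of the columns were -0.12 and -0.04.

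In limma 3.58.1 (R 4.3.3), the background was handled by normexp with an offset of 50 and every file by loess, in which control spots had no weight. A spot was kept at a flag of 0 if Cy3 exceeded its background by 2 SDs or Cy5 reached beyond 1.5 times its background. The files give 1 background SD with no channel named, and from the values it was taken as that of Cy3. The mean against 0 was tested with lmFit and eBayes and Benjamini-Hochberg adjustment over 4791 genes, with a prior SD of 0.372 on 9.90 prior degrees of freedom. The test was first run on simulated data, drawn as 2 independent arrays with the spread fitted to these data. That run cannot show how the test performs if the real arrays are technical repeats. Names marked missing, reporters, controls and intergenic or intronic probes were left out. Names in the misread blocks were moved by 1 row, a step chosen after the data were seen. Of 4868 gene names, 4609 matched 1 gene of a reference table (RefSeq, assembly ASM294v3), 53 matched several and 206 none, and the table served for names and neighbours alone.

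The genes and pathway lists were chosen with earlier results of these data known. Genes named in the text are the 8 listed ones, pob3, and pathway genes past the threshold or over 2-fold on an array. Of each list of at least 4 measured genes the 2 highest and 2 lowest are named, and of shorter lists all. Also named are the 3 genes nearest to vht1, snz1 and nmt1, and the neighbours. The genes pdx3, pdc101 and tkt1 were named after their values were seen.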

Additional observations from a re-analysis of the deposited data

How the results depend on the processing

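The count of genes past the threshold, 30 as reported, was 13 at the lower offset of 10, 55 with no correction of the background, 48 with print-tip loess, 51 with first and 56 with second spots alone, 68 (49 higher and 19 lower) with the submitters' values for replicate 2, and 0 with median centring (limma, 167 at an unadjusted p under 0.05). Of the 7 vitamin genes, 0 passed with median centring (vht1 at -1.99). With the first spots alone 2 passed, vht1 and snz1, against 51 of 4746 genes, and nmt1 had no value there. The same 2 passed with the submitters' values, against 68 of 3146 genes. Of the vitamin genes, only vht1, snz1 and thi9 had a value in that setting. Over 2-fold lower on both arrays was 1 gene, vht1, without background correction, with median centring, print-tip loess or the second spots alone, or with the misread blocks left out. No pathway gene passed in any setting (limma). These settings held 29 pathway genes, but 28 with the misread blocks left out and 19 with the submitters' values. The cause of these changes was not tested.

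Directions reversed as follows. With print-tip loess, nmt1 was at -0.067, pda1 at 0.097, sno1 at 0.056 and eca39 at 0.076. With median centring, cut6 was at -0.19, met26 at -0.25 and gut2 at -0.032. With the first spots alone, thi9 was at 0.017 and spd1 at -0.087, and with the second, thi201 was at -0.11 and sno1 at 0.082. With the names as deposited, nmt1 was at -0.32. Single arrays, with the other left out, gave from -0.024 to 0.36 for thi4, -0.22 to 0.014 for thi9, -0.29 to 0.83 for nmt1, -0.088 to 0.15 for thi201, -0.42 to 0.24 for pda1, -0.096 to 0.43 for cut6 and -0.11 to 0.098 for sno1. They gave -0.13 to 0.63 for plr1, -0.31 to 1.21 for rib1, -0.41 to 0.43 for spd1, -0.82 to 0.0015 for tda1, -0.25 to 0.69 for sec9, -0.16 to 0.059 for eca39, -0.13 to 0.35 for apq12, -0.25 to 0.30 for gut2, -0.31 to 0.82 for cyt2, -0.29 to 0.85 for png3 and -0.27 to 0.83 for msh6. The other 30 of 49 genes kept their sign throughout. The settings on names and on the spelling of ef1-b control spots were chosen after seeing the data. Each ratio already pairs the strains on 1 array. With the array as a random block over its duplicate spots, 29 genes passed.

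With 2 arrays the test leans on a spread shared across genes. For nmt1, a dim signal and a single kept spot on replicate 2 limit the value.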

Other observations

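Moving the names in the misread blocks changed some of the calls over all genes. Of 25 genes past the threshold with the names as deposited, 24 were among the 30 past it with the names moved. The gene lost was SPAC29A4.06c, whose row lies in such a block, and the 6 gained were hsp9, leu2, sou1, nod1, apc14 and uvi15, 5 of them with no row there. These genes were named after their values were seen. The correlation of brightness between the arrays over all genes was 0.945 with the names as deposited and 0.967 with the names moved. Among the 7 vitamin genes, brightness relative to the median of the array differed between the arrays by -0.34 (nmt1) to 0.72 (vht1) on the log2 scale after the move. Over all genes the median absolute difference was 0.25, and the difference of vht1 ranked 327 of 4791, counted from the largest.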
